A study of Mus musculus with 19 samples.

Results

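The AMPA receptor genes are described here in RNA from dendrites that were cut from cultured mouse hippocampal neurons. The genes were taken by name, as the pore-forming subunits Gria1, Gria2, Gria3 and Gria4, the auxiliary subunit Cnih2, and the cytoplasmic partners Grip1 and Pick1. All 7 were on the array, as 7 of 18193 genes and 15 of 45037 probe sets, and none was left out for low signal. Neurons were taken at embryonic day 18 from 2 inbred strains, Balb/c and C57BL/6, neither with a mutation or treatment named, and were grown for 14 days. A total of 5 arrays came from Balb/c (2 with pools of 100 dendrites, 1 with 200 and 2 with 400) and 14 from C57BL/6 (4, 5 and 5). The soma was removed with a micropipette, and the RNA was amplified in several rounds before it was hybridized to the Affymetrix array for mouse transcripts. Axons could not be told apart from dendrites by shape in these cultures. The labels name the pools as biological replicates without stating whether a strain's pools had cultures of their own, and the p-values then reflect only how pools vary, which may be technical. In array names the strain is followed by the pool size and the replicate, as in Balb/c 400-1 for replicate 1 of the Balb/c pools of 400.

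AMPA receptors are the ligand-gated channels that carry most fast excitatory transmission in the brain. They are assembled from the GluA subunits that the Gria genes encode, leave the endoplasmic reticulum with helpers such as the cornichon protein encoded by Cnih2, and are carried to and held at synapses by PDZ proteins such as those of Grip1 and Pick1. GluA2, after RNA editing, keeps calcium out of the channel, and messenger RNAs of Gria1 and Gria2 have been seen in dendrites of cultured rat hippocampal neurons. A question of the study was how far the RNA content of dendrites differs between strains and species, and for these genes that question is the comparison of Balb/c with C57BL/6.

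Promoter sequence of RefSeq (GRCm38.p6) was at hand for Gria2, Gria4, Cnih2, Grip1 and Pick1. The 250 bases before the start are shown for Gria2 and Cnih2, as the genes that differed between the strains below and for which such an entry was held. The Gria2 entry covers chr3:80802836-80803085 on the minus strand, before a start that lies inside the annotated locus (chromosome 3, 80681450 to 80804227). The Cnih2 entry covers chr19:5098522-5098771 on the minus strand, directly before the locus (chromosome 19, 5092868 to 5098521). Capitals mark the GC box (GGGCGG on either strand).
Gria2 promoter: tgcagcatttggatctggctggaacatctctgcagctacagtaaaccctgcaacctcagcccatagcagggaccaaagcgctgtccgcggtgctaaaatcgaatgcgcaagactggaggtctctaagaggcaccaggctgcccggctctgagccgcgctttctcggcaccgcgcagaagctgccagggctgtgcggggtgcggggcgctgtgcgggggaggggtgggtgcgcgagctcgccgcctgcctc
Cnih2 promoter: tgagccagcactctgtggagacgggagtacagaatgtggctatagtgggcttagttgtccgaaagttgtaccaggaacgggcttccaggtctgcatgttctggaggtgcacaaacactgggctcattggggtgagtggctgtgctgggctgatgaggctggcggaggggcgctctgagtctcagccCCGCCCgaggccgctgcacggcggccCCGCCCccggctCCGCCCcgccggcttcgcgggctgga
The Gria2 window held 0 GC boxes and the Cnih2 window held 3, while 32.7% of 32851 promoters of this length held at least 1. Neither window held the cyclic AMP element core TGACG (17.8% of all promoters) or the E box CACGTG (6.02%), both searched on both strands. GC made up 64.8% of the Gria2 window and 65.6% of the Cnih2 window.

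Values are log2 expression, and a gene's value is the median of its probe sets. Differences are Balb/c minus C57BL/6. They are given relative to the median of all genes (0.22 log2 higher in Balb/c) or of all probe sets (0.25 higher), and the tests themselves used deposited values. A p-value of the strain fit thus belongs to the difference before that median was taken off. For the named genes that difference is smaller in size where they were called lower and larger where they were called higher. In earlier results of these data 3 arrays were named as lying between the strains, namely Balb/c 200-1, C57BL/6 200-1 and C57BL/6 400-1. Across genes, Balb/c 200-1 correlated at a mean r of 0.6785 with the other Balb/c arrays and 0.782 with C57BL/6. C57BL/6 200-1 correlated at 0.781 with Balb/c and 0.757 with the other C57BL/6 arrays. Both were thus nearer the other strain than their own, and why was not tested. The choice of the 3 arrays has no sharp edge. Balb/c 400-2 correlated at a mean r of 0.775 with the other Balb/c arrays and 0.720 with C57BL/6. C57BL/6 400-1 correlated at 0.722 with Balb/c and 0.779 with the other C57BL/6 arrays. The deposited values of all 5 Balb/c arrays, and of C57BL/6 100-1, 100-2, 200-1 and 400-1, were printed with up to 14 decimals and those of the other 10 C57BL/6 arrays with up to 9. This split in number format was taken as a technical batch, and for the AMPA receptor genes and the partners named below the result is given also with the format as a block, where it rests on 5 Balb/c and 4 C57BL/6 arrays. Of these 4 C57BL/6 arrays, 2 are among the 3 named as lying between the strains. Actin control probe sets differed by −0.69 to 2.27 (3' minus 5', log2) in Balb/c and by 3.27 or more in 12 of 14 C57BL/6 arrays, with 1.17 in C57BL/6 200-1 and 1.65 in C57BL/6 400-1. The same difference for the Gapdh control probe sets was 1.48 to 4.72 in Balb/c and 2.39 to 5.005 in C57BL/6, which overlapped. The part of these features in the differences below was not tested. As a level of little signal, 80 olfactory and vomeronasal receptor probe sets had medians of 5.72 to 6.86 per array and 95th percentiles of 8.17 to 9.97.

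Between the strains, 4 of the 7 genes were lower in Balb/c (Gria1, Gria2, Gria3 and Cnih2) and 0 were higher. Their differences were −1.12 to −1.53 relative to the median gene, and Gria4, Grip1 and Pick1 did not pass the test. Of all 18193 genes, 11.4% were called lower in Balb/c and 21.1% higher (limma, Benjamini-Hochberg adjusted p under 0.05), 32.5% in either direction. The split over all genes moved with the scaling. It was 2073 lower and 3837 higher as deposited, 2522 and 2765 after quantile normalization, and 2663 and 2600 after median centering and range scaling, while 4 of the 7 genes were called lower under each. Without the 3 arrays between the strains, which were named for their likeness to the other strain so that leaving them out widens differences by construction (7926 genes called against 5910), the same 4 genes were called, at −1.22 (Gria3) to −1.82 (Gria2), with adjusted p of 7.66e-05 for Gria2 to 0.0164 for Cnih2. With the number format as a block, 1.92% of all genes and 0 of the 7 were called. Within the arrays of the long format alone 0% of genes were called, with 2367 genes at an unadjusted p under 0.05.

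Gria2 encodes the subunit that sets calcium permeability. Its gene value was 8.12 and 7.75 (pools of 100), 7.94 (200), 7.82 and 7.40 (400) in Balb/c, against 7.10 to 9.99 with a median of 9.12 in C57BL/6. Of the 14 C57BL/6 arrays, 13 lay above every Balb/c array, and C57BL/6 200-1 lay below them all. The difference was −1.53 ± 0.33 (SE, adjusted p = 0.00492), and −0.91 ± 0.39 with the block (adjusted p = 0.248). Taken from its brightest probe set in place of the median, the difference was 0.59 and did not pass (adjusted p = 0.195). The median fell on different probe sets in the 2 strains. It was the value of 1421970_a_at in each Balb/c array but Balb/c 200-1, and mostly that of 1453098_at or 1434146_at in C57BL/6. At 1421970_a_at alone the difference did not pass (−0.79 ± 0.29, adjusted p = 0.150).

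Gria1 encodes GluA1, the subunit that is phosphorylated and inserted during synaptic potentiation. Its gene value in Balb/c was 4.50 and 5.11 (100), 5.45 (200), 5.75 and 5.34 (400), against 5.55 to 7.84 with a median of 6.28 in C57BL/6. The groups overlapped only through Balb/c 400-1, since 4 of 5 Balb/c arrays lay below the lowest C57BL/6 array, C57BL/6 400-1. The difference was −1.49 ± 0.34 (adjusted p = 0.00726), and −1.29 ± 0.44 with the block (adjusted p = 0.140). The value lay above the median of the olfactory receptors in 0 of 5 Balb/c and 10 of 14 C57BL/6 arrays, so its size can be bounded by background.

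Gria3 encodes GluA3, which in the adult hippocampus pairs mostly with GluA2. Its value was 7.74 and 6.37 (100), 6.90 (200), 6.66 and 6.85 (400) in Balb/c, against 7.11 to 8.55 with a median of 7.81 in C57BL/6. Balb/c 100-1 alone lay within the C57BL/6 range. The difference was −1.12 ± 0.25 (adjusted p = 0.00894), and −0.75 ± 0.31 with the block (adjusted p = 0.254).

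Cnih2 encodes a cornichon protein that aids export of the receptor and slows its desensitization. Its value was 7.91 and 7.81 (100), 8.34 (200), 6.61 and 9.12 (400) in Balb/c, against 7.82 to 10.1 with a median of 8.99 in C57BL/6. The 2 Balb/c pools of 400 dendrites stood at both ends of the Balb/c range, and 4 of 5 Balb/c arrays were below the C57BL/6 mean. The difference was −1.37 ± 0.37 (adjusted p = 0.0200). It did not pass with the block (−0.62 ± 0.43, adjusted p = 0.525) or without Balb/c 400-1 (−1.02, adjusted p = 0.107).

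The other 3 genes did not pass the test. Gria4, whose GluA4 subunit is prominent in interneurons and in early development, was at 6.38 ± 0.39 in Balb/c and 6.61 ± 0.67 in C57BL/6 (SD, n = 5 and 14), a difference of −0.45 ± 0.32 relative to the median gene (adjusted p = 0.589, 0.949 with the block). Grip1, a scaffold with several PDZ domains that binds the GluA2 tail and kinesin, was at 7.73 ± 0.86 in Balb/c and 7.73 ± 0.60 in C57BL/6 (−0.21 ± 0.34, adjusted p = 0.993, 0.959 with the block). Pick1, whose PDZ protein takes part in removal of GluA2 from the surface, was at 7.59 ± 0.37 in Balb/c and 7.21 ± 0.38 in C57BL/6 (0.16 ± 0.23, adjusted p = 0.206, 0.604 with the block). All 5 Balb/c arrays were above the C57BL/6 mean of Pick1 as deposited, and all 3 genes overlapped between the strains.

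**Figure D1:**
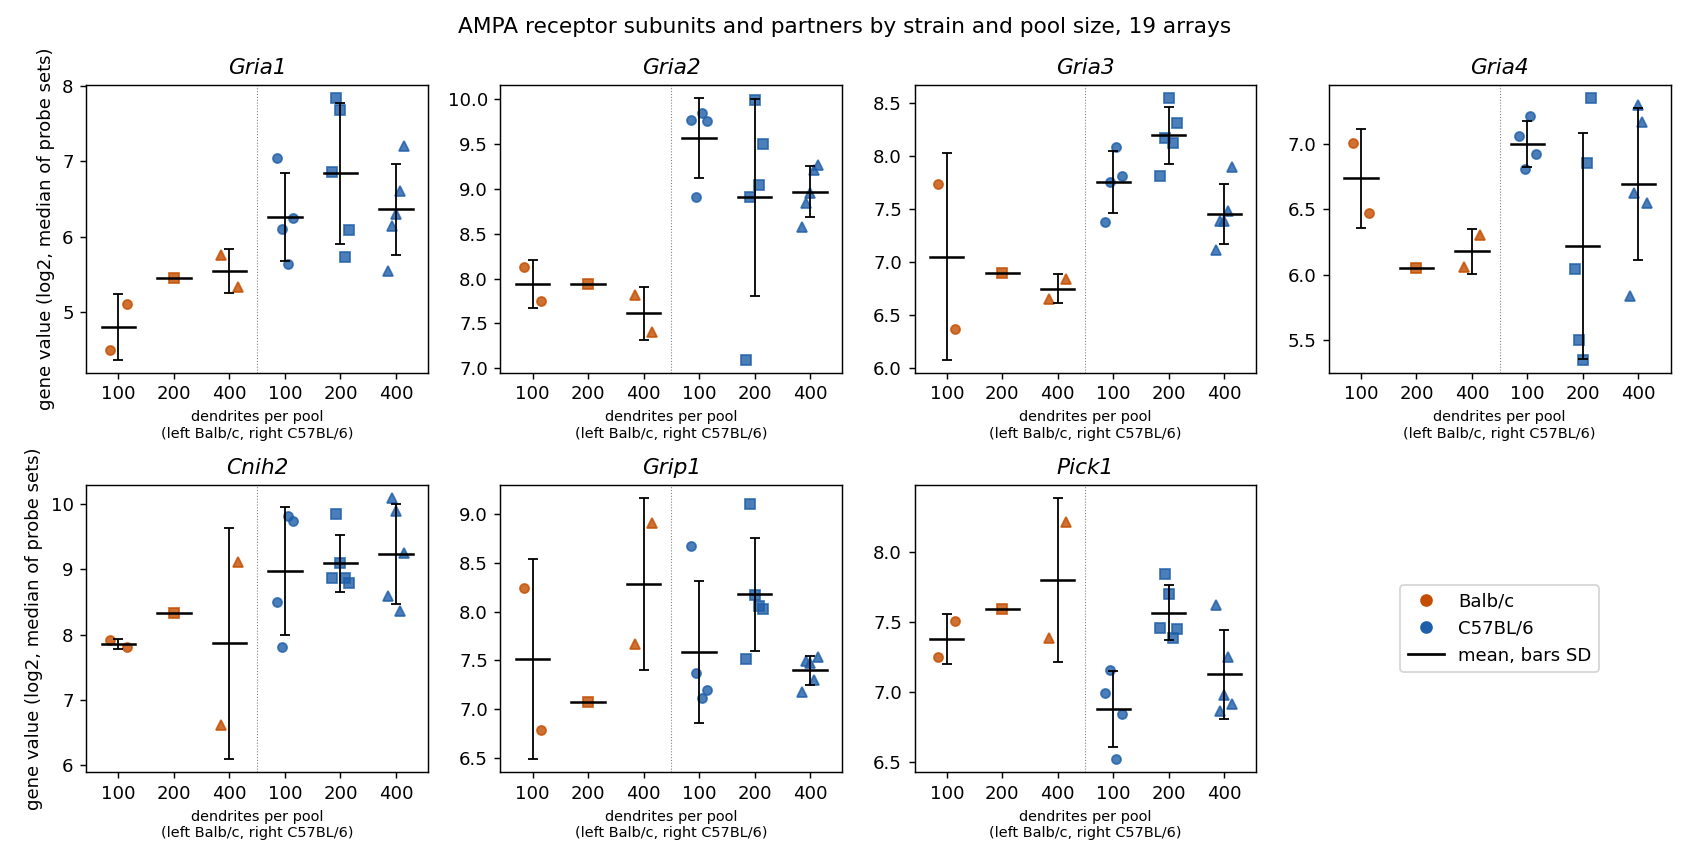
Gene value (log2, median of the probe sets) of the 7 genes in each array, by dendrites per pool, with Balb/c on the left and C57BL/6 on the right of each panel; lines are means and bars SDs, with no bar where a group holds 1 array. For Gria1, Gria2, Gria3 and Cnih2 the 3 Balb/c means lie below the 3 C57BL/6 means, and the axes differ between panels.

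The plot of gene values by pool size orders the 6 groups of strain and pool size. For Gria1, Gria2, Gria3 and Cnih2 the 3 Balb/c means were the lowest 3. For Gria1 the highest Balb/c mean, 5.55 ± 0.29 in pools of 400 (SD, n = 2), lay below the lowest C57BL/6 mean, 6.26 ± 0.58 in pools of 100 (n = 4), by more than either SD. For Gria2 these neighbors were Balb/c pools of 200 (7.94, n = 1) and C57BL/6 pools of 200 (8.91 ± 1.10, n = 5), for Gria3 Balb/c pools of 100 (7.05 ± 0.97, n = 2) and C57BL/6 pools of 400 (7.45 ± 0.28, n = 5). For Cnih2 they were Balb/c pools of 200 (8.34, n = 1) and C57BL/6 pools of 100 (8.97 ± 0.98, n = 4). In these 3 genes the neighbors did not differ beyond an SD of one of them. For Gria4, Grip1 and Pick1 the groups of the strains were interleaved. Lowest and highest were Balb/c pools of 200 (6.05, n = 1) and C57BL/6 pools of 100 (7.002 ± 0.18) for Gria4, Balb/c pools of 200 (7.08) and of 400 (8.28 ± 0.88) for Grip1, and C57BL/6 pools of 100 (6.88 ± 0.27) and Balb/c pools of 400 (7.80 ± 0.58) for Pick1.

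Pool size itself was called for 0 of the 7 genes. Relative to the median gene, slopes per doubling of the number of dendrites were −0.24 (Gria2) to 0.14 (Gria1 and Pick1), with SEs of 0.12 to 0.20. The slope passed for 0% of all genes (limma, 850 at an unadjusted p under 0.05) and the difference of slopes between strains for 0% (690 unadjusted), and 0 of the 7 had an unadjusted p under 0.05 in either. Within C57BL/6, pools of 400 differed from pools of 100 by −0.57 ± 0.28 for Gria2 (adjusted p = 0.722) and by −0.28 to 0.30 for the other 6 genes. In those 4 and 5 arrays, Gria2 was at 8.90 in one pool of 100 and at 9.75 to 9.85 in the other 3, and at 8.58 to 9.26 in pools of 400.

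The gene medians joined probe sets that differed from each other. Of the 15 probe sets, 5 were lower in Balb/c, 1 was higher and 9 were not called, with 11.6% of all 45037 probe sets lower and 21.3% higher. With the number format as a block 1.87% of all probe sets were called, and 1 of the 15. For each of Gria1, Gria2 and Gria3 a single probe set carried most of the difference. The paper states that the array was designed on the strain other than Balb/c. It cautions that base changes (SNPs), insertions or deletions may influence Balb/c readings. It counted similar numbers of SNPs in the genes most and least different between the strains. Whether such sequence variants lie under the probes of these probe sets was not tested.

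The largest difference of the 15 was at Gria2 1434146_at, a probe set classed as designed from an expressed sequence tag (EST) by a rule given below. It read 4.69 and 5.40 (100), 7.94 (200), 4.30 and 4.30 (400) in Balb/c, against 5.53 to 10.5 with a median of 9.13 in C57BL/6. The Balb/c array at 7.94 and the C57BL/6 array at 5.53 were Balb/c 200-1 and C57BL/6 200-1. Both correlated more with the other strain than with their own. The difference was −4.01 ± 0.63 (adjusted p = 0.000327), −5.11 without the 3 arrays, and −2.71 ± 0.72 with the block (adjusted p = 0.0623). In Balb/c, 4 of 5 arrays read below the median of the olfactory receptors, so the size can be bounded by background.

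The other 2 probe sets of Gria2 did not follow it. At 1421970_a_at, designed from a RefSeq mRNA, Balb/c read 8.12 and 7.75 (100), 8.45 (200), 7.82 and 7.40 (400), against 7.10 to 9.36 with a median of 8.44 in C57BL/6. This was a difference of −0.79 ± 0.29 (adjusted p = 0.150), which passed without the 3 arrays between the strains (−1.07, adjusted p = 0.0231) and without C57BL/6 200-1 alone (adjusted p = 0.0456). At 1453098_at, designed from a cDNA, Balb/c read 10.1 and 12.01 (100), 7.47 (200), 11.4 and 10.7 (400), against 8.58 to 10.3 with a median of 9.72 in C57BL/6. Of the 5 Balb/c arrays, 3 were above every C57BL/6 array and 1 was below them all. The difference of 0.52 ± 0.45 did not pass (adjusted p = 0.196) but did so in the opposite direction to the gene median without Balb/c 200-1 (1.19, adjusted p = 0.0013). Since the SD was 1.76 in Balb/c and 0.42 in C57BL/6, and the fit used 1 variance for both strains, its adjusted p with a variance per strain was 0.228.

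Gria1 had 2 probe sets. Gria1 1435239_at, designed from an EST, read 4.21 and 4.39 (100), 4.93 (200), 4.46 and 5.07 (400) in Balb/c, against 5.31 to 7.80 with a median of 7.02 in C57BL/6. It was the only one of the 15 whose groups did not overlap, which was not counted over all probe sets. The C57BL/6 arrays nearest to Balb/c were 400-1 (5.31) and 200-1 (5.86). The difference was −2.44 ± 0.34 (adjusted p = 0.000167). It was also the only one to pass with the block (−1.69 ± 0.38, adjusted p = 0.0407), though not within the 9 arrays of the long format alone (adjusted p = 0.352). All 5 Balb/c arrays read below the olfactory receptor median and 12 of 14 C57BL/6 arrays above it, so this size too can be bounded by background. Gria1 1448972_at, designed from a RefSeq mRNA, read 4.79 to 7.04 in Balb/c and 4.03 to 8.45 in C57BL/6 and did not pass (−0.61 ± 0.55, adjusted p = 0.642).

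Gria3 showed a like split. Its EST probe set 1434728_at read 7.01 and 5.56 (100), 6.39 (200), 4.88 and 5.34 (400) in Balb/c, against 6.40 to 8.53 with a median of 7.64 in C57BL/6. Balb/c 100-1 alone reached into the C57BL/6 range, whose lowest array was C57BL/6 400-1. The difference was −2.03 ± 0.34 (adjusted p = 0.000766), and −1.40 ± 0.40 with the block (adjusted p = 0.0883). Its RefSeq probe set 1420563_at read 7.18 to 8.47 in Balb/c and 7.11 to 9.36 in C57BL/6, a difference of −0.28 ± 0.35 (adjusted p = 0.964).

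Of the 3 probe sets of Gria4, only the dimmest was called. Gria4 1440891_at, designed from an EST, read 2.89 to 4.30 in Balb/c and 3.59 to 5.88 in C57BL/6, a difference of −1.17 ± 0.32 (adjusted p = 0.0312, 0.252 with the block). It lay above the olfactory receptor median in 0 of 5 Balb/c and 1 of 14 C57BL/6 arrays, and leaving out any of Balb/c 100-1, 100-2, 400-1 or 400-2 brought the adjusted p to 0.0514 or more. Gria4 1435722_at read 9.20 to 10.1 in Balb/c and 8.60 to 9.88 in C57BL/6 (0.03 ± 0.24, adjusted p = 0.373), and 1421351_at read 6.05 to 7.01 in Balb/c and 5.35 to 7.35 in C57BL/6 (−0.49 ± 0.33, adjusted p = 0.604).

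Among the partners, Cnih2 had 1 probe set, 1417524_at, whose difference relative to the median probe set was −1.41 ± 0.38 (adjusted p = 0.0237, 0.540 with the block). Without Balb/c 100-2 or Balb/c 400-1 its adjusted p was 0.0546 and 0.119. The 1 probe set called higher in Balb/c was Pick1 1454530_at, which read 6.88 and 7.81 (100), 7.13 (200), 7.75 and 7.43 (400) in Balb/c, against 6.13 to 7.35 with a median of 6.70 in C57BL/6. Of the 5 Balb/c arrays, 3 were above every C57BL/6 array. The difference was 0.46 ± 0.25 relative to the median probe set and 0.72 as deposited, the value tested (adjusted p = 0.0338). It did not pass after quantile normalization (0.0917), with the block (0.234) or without any one of Balb/c 100-2, 400-1 and 400-2 (0.0642 to 0.100). Pick1 1419384_at (−0.22 ± 0.31, adjusted p = 0.941) and the Grip1 probe sets 1421350_a_at (0.25 ± 0.44, 0.393) and 1435951_at (−0.74 ± 0.51, 0.475) were not called. In pools of 400 only, Grip1 1421350_a_at was called higher in Balb/c (1.303, adjusted p = 0.0352). With a variance per strain, Gria4 1440891_at, Cnih2 1417524_at and Pick1 1454530_at did not pass (adjusted p = 0.0757, 0.0548 and 0.0778).

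**Figure D2:**
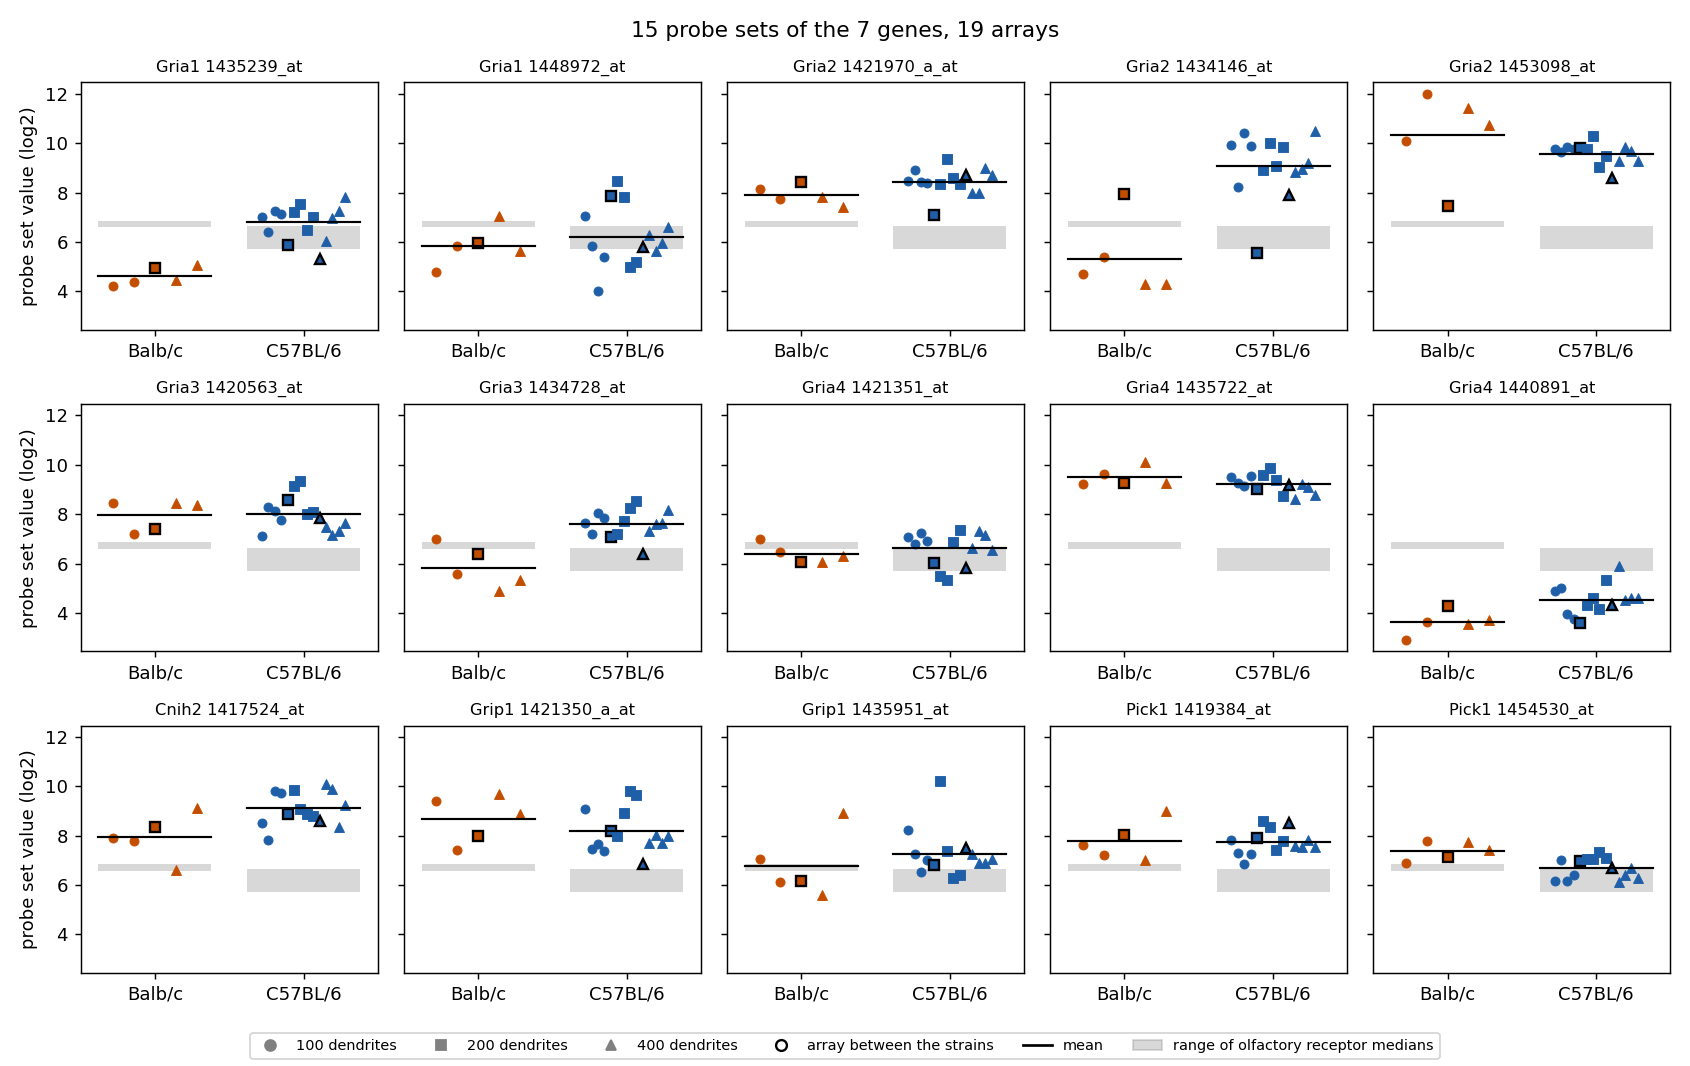
Value (log2) of the 15 probe sets in the 19 arrays, Balb/c left and C57BL/6 right, with marker shape for pool size, black rims for the 3 arrays between the strains, a line at the mean and a grey band for the range of the olfactory receptor medians. Gria1 1435239_at is the panel without overlap, and in Gria2 1434146_at the rimmed Balb/c array and a rimmed C57BL/6 array lie near the other strain.

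The source of a probe set's design was read from the start of its accession, with NM as RefSeq mRNA, AK as cDNA and any other as EST. Grouped by this source, a grouping made after the values were seen, 4 of the 6 EST probe sets were lower in Balb/c and 0 higher, with a median difference of −1.60 over the 6. Of the 7 RefSeq mRNA probe sets 1 was lower and 0 higher, with a median of −0.49, and of the 2 cDNA probe sets 0 were lower and 1 was higher. The share called by source over the whole array was not examined, so nothing is read from this grouping. Where the probes lie in each transcript was not examined. Within a gene, the probe set with the highest mean of the 2 strain means, minus the median of the others, can be compared between strains. A shift common to the gene has no effect on it. This measure was called for 29.2% of the 9010 genes with more than 1 probe set, and for 3 of the 6 such genes here. It was higher in Balb/c by 2.92 ± 0.69 for Gria2 (adjusted p = 0.00347), by 1.85 ± 0.61 for Gria1 (adjusted p = 0.0281) and by 1.76 ± 0.49 for Gria3 (adjusted p = 0.0105). Gria4 (0.87 ± 0.40, adjusted p = 0.106), Grip1 (1.002 ± 0.68, 0.278) and Pick1 (−0.67 ± 0.38, 0.186) did not pass. With the block 0 of the 6 passed (adjusted p = 0.133 for Gria2, 0.575 for Gria1 and 0.243 for Gria3). Without Balb/c 400-1 the call was lost for Gria1 (adjusted p = 0.109) and Gria3 (0.0570), and without Balb/c 100-2 for Gria1 (0.0636).

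**Figure D3:**
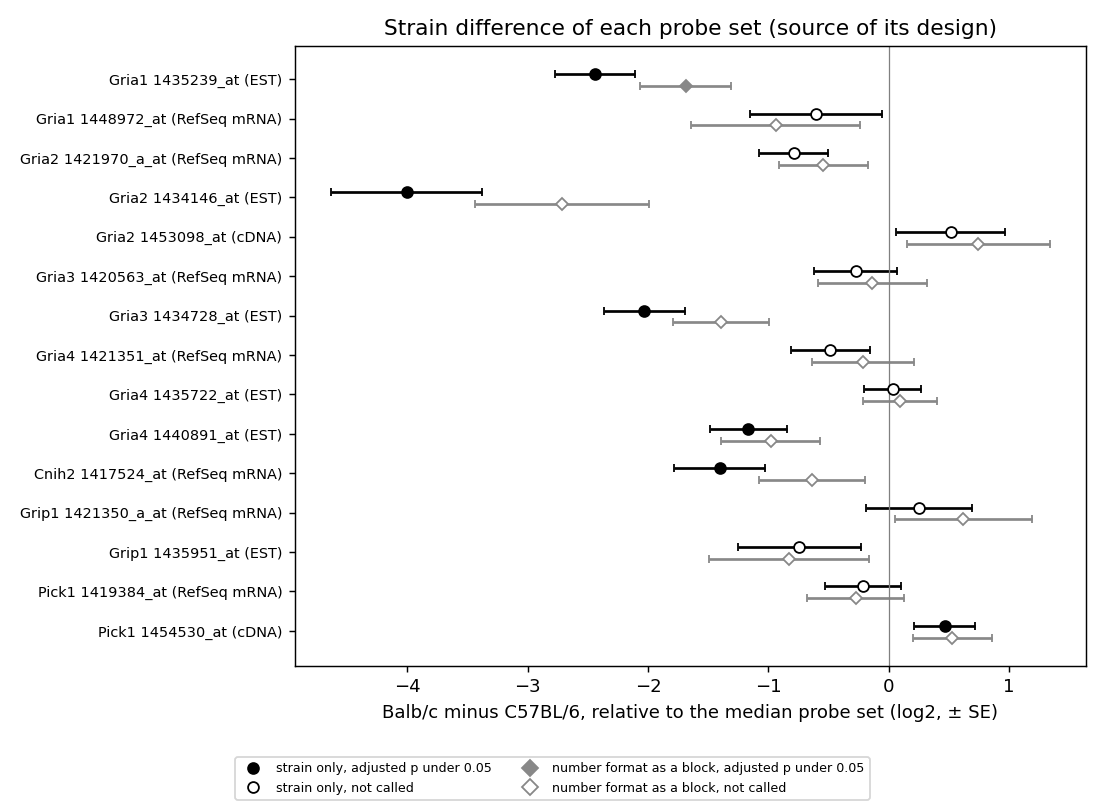
Balb/c minus C57BL/6 difference of each probe set relative to the median of all probe sets (log2, bars SE), with circles for the fit on strain only and diamonds for that with number format as a block, filled where the adjusted p was under 0.05. The circles of Gria2 1434146_at, Gria1 1435239_at and Gria3 1434728_at lie at −4.01, −2.44 and −2.03, and Gria1 1435239_at has the only filled diamond.

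Against the level of little signal, the genes were mostly dim. Gria2 1453098_at exceeded the 95th percentile of the olfactory and vomeronasal receptors in 4 of 5 Balb/c and 12 of 14 C57BL/6 arrays, and was the only one of the 15 to do so in most arrays. Gria2 1434146_at did so in 0 of 5 Balb/c and 9 of 14 C57BL/6 arrays, Cnih2 1417524_at in 0 and 7, and Gria4 1435722_at in 2 and 6. Both Gria1 probe sets, Gria3 1434728_at, Pick1 1454530_at and the remaining 2 Gria4 probe sets did so in 0 arrays of either strain. No detection calls were used here, so a value under this level is not shown to be absence of the transcript.

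The strains also differed in neuron markers, and in bulk pools fewer dendrites of a kind and less RNA per dendrite cannot be told apart. Of 8 neuron markers 4 were lower in Balb/c and 1 higher, and their mean level was 7.48 ± 0.87 in Balb/c (6.37 to 8.63) and 8.73 ± 0.24 in C57BL/6 (8.39 to 9.23). Stmn2, a stathmin of growing neurites, and Nefl, the light neurofilament, differed by −4.90 and −2.67, and Map2, the dendritic microtubule protein, by −1.45. Eno2, the neuronal enolase, was the marker called higher, at 7.84 in Balb/c and 6.02 in C57BL/6 (1.61, adjusted p = 0.0239). With the block 2 of the 8 passed, Stmn2 and Nefl (adjusted p = 0.0234 and 0.0435), while Map2 and Eno2 did not (0.115 and 0.366). Of 5 pyramidal neuron markers 2 were lower and 1 (Camk2a) was higher, with list means of 6.46 to 8.15 in Balb/c and 7.12 to 8.11 in C57BL/6. Of 11 GABAergic interneuron markers 3 were lower and 1 higher (6.89 to 7.30 and 6.92 to 7.95), and of 9 astrocyte markers 2 were lower (6.27 to 7.87 and 6.50 to 7.68). Of 9 oligodendrocyte lineage markers 3 were higher in Balb/c (6.48 to 6.96 and 6.24 to 6.67), of 8 microglia markers 3 (6.67 to 7.32 and 5.88 to 6.92) and of 5 endothelial markers 2 (6.14 to 8.10 and 6.63 to 7.41). Over all genes 11.4% were called lower in Balb/c and 21.1% higher, and no marker list was tested against these shares. With the block 1 GABAergic marker (Gad1) and 1 microglia marker (Itgam) were called and 0 of the pyramidal, astrocyte, oligodendrocyte and endothelial markers. The part of these levels in the AMPA receptor differences was not tested.

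The genes around the receptor were taken from 5 lists by role. Of 55 measured partner genes of 58 listed, 16 were lower in Balb/c and 8 higher, with a median of −0.49 relative to the median of all genes. For the 7 AMPA receptor genes that median was −1.12. Over all genes 11.4% were called lower in Balb/c and 21.1% higher, and no partner list was tested against these shares. With the block 2 of the 55 were called, Kif5c and Olfm1, beside 1.92% of all genes.

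TARPs are transmembrane proteins that bind the receptor and hold it at the synapse. Of 6 TARP genes, 0 were lower and 2 higher, with a median of 0.26. Cacng4 was at 8.40 ± 0.90 in Balb/c and 6.81 ± 0.65 in C57BL/6, a difference of 1.38 ± 0.35 (adjusted p = 0.00227, 0.0863 with the block). Cacng7 was at 10.7 ± 0.81 in Balb/c and 9.67 ± 0.48 in C57BL/6 (0.82 ± 0.30, adjusted p = 0.0118), which did not pass with the block (0.300) or without Balb/c 100-1 or 100-2 (0.0503 and 0.0522). Cacng8, the TARP that is most abundant in hippocampus, did not pass (0.33 ± 0.29, adjusted p = 0.143).

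Other auxiliary and complex proteins split, with 1 of 10 lower and 2 higher (median −0.37). Olfm1, an olfactomedin found in native AMPA receptor complexes, was at 6.93 ± 2.15 in Balb/c and 10.3 ± 0.66 in C57BL/6, a difference of −3.57 ± 0.56 (adjusted p = 0.000305, 0.0478 with the block). Shisa7 (1.17 ± 0.29, adjusted p = 0.00137) and Prrt1 (0.75 ± 0.27, adjusted p = 0.00954), both membrane proteins that associate with the receptor, were higher in Balb/c, and neither passed with the block (0.100 and 0.326).

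Of the 7 genes for assembly in the endoplasmic reticulum, 5 were lower and 0 higher (median −1.09). Sacm1l, a lipid phosphatase found in early receptor complexes, was at 5.44 ± 1.55 in Balb/c and 7.94 ± 0.76 in C57BL/6 (−2.71 ± 0.48, adjusted p = 0.000814). Cnih1, the cornichon relative of Cnih2, was at 7.60 ± 0.69 in Balb/c and 9.34 ± 0.80 in C57BL/6 (−1.96 ± 0.38, adjusted p = 0.00195). Abhd6, a lipid hydrolase that limits delivery of receptors to the surface, differed by −1.43 ± 0.26 (adjusted p = 0.00178). None of these 3 passed with the block (0.0777, 0.175 and 0.176).

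Of 24 genes for anchoring and trafficking, 7 were lower and 3 higher (median −0.54). The kinesin heavy chains, motors that bind Grip1 protein, were called in both directions. Kif5c was at 7.10 ± 1.85 in Balb/c and 9.82 ± 0.57 in C57BL/6 (−2.94 ± 0.48, adjusted p = 0.000501, 0.0233 with the block) and Kif5b differed by −1.86 ± 0.36 (adjusted p = 0.00199, 0.165 with the block). Kif5a differed by 0.74 ± 0.24 (adjusted p = 0.00517, 0.159 with the block). Epb41l1, the 4.1N protein that binds the GluA1 tail, differed by −1.66 ± 0.29 (adjusted p = 0.00108, 0.0823 with the block). Of 8 genes for editing and phosphorylation, 3 were lower and 1 higher (median −0.73). Prkcb and Prkca, protein kinase C isoforms, differed by −2.01 ± 0.32 (adjusted p = 0.000567) and −1.11 ± 0.29 (adjusted p = 0.0232). Camk2a, the kinase that phosphorylates GluA1 in potentiation, was at 7.65 ± 0.47 in Balb/c and 6.95 ± 0.29 in C57BL/6. Its difference was 0.47 ± 0.21 relative to the median gene and 0.69 as deposited, the value tested (adjusted p = 0.0174). None of these 3 passed with the block (0.0732, 0.237 and 0.140), Prkca did not pass without Balb/c 100-1 or 400-1 (0.0617 and 0.0697), and Camk2a did not without Balb/c 400-1 (0.0794).

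**Figure D4:**
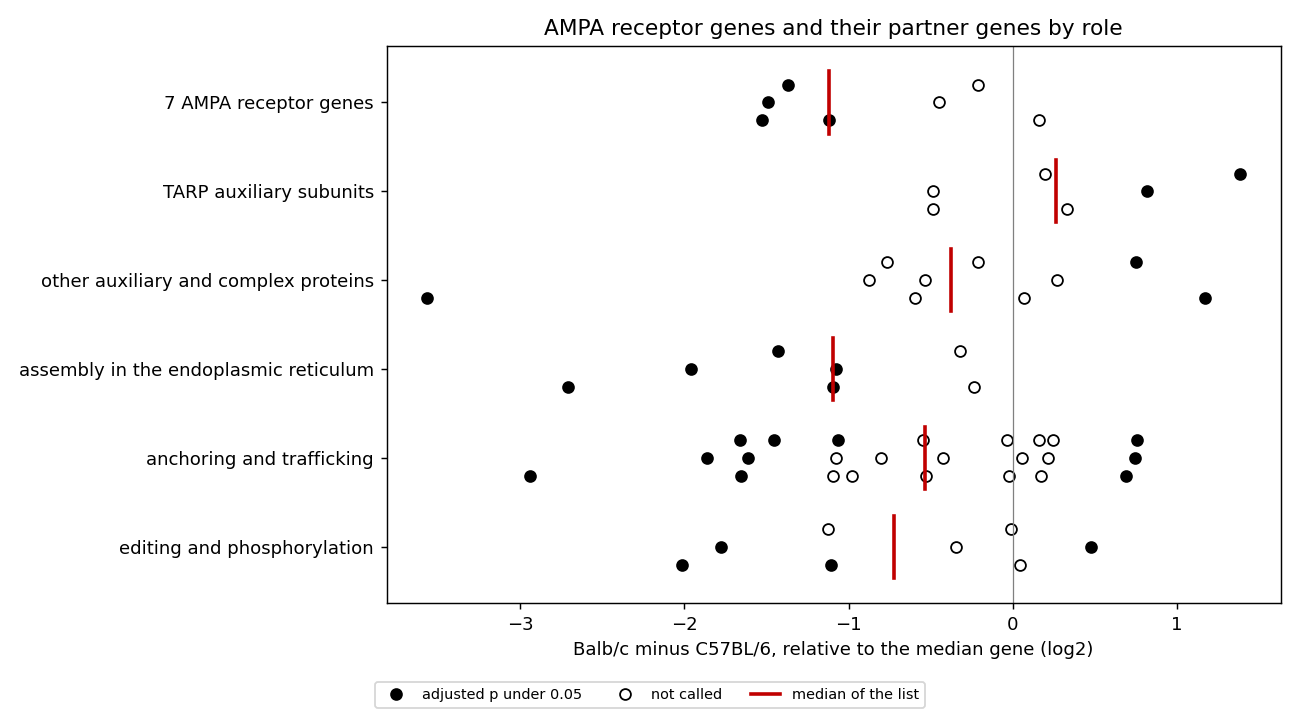
Balb/c minus C57BL/6 difference of each gene relative to the median gene (log2), for the 7 AMPA receptor genes and the 5 lists of partner genes, filled where the adjusted p was under 0.05, with a red line at the list's median. The medians of the 7 genes and of the assembly genes lie at −1.12 and −1.09 and that of the TARPs at 0.26.

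Within strains, the AMPA receptor genes varied largely apart from each other. After each array's median and each strain's mean were taken out, the Pearson correlations of the 21 pairs over the 19 arrays ran from −0.67 (Gria4 and Pick1) to 0.51 (Grip1 and Pick1), with 0.38 for Gria2 and Gria3 and 0.09 for Gria1 and Gria2. These points share arrays and amplification and are given as a description. The genes whose values were most like those of each, by the same measure, were Lrrc4 (0.82), Kif3c (0.81) and Trip12 (0.80) for Gria1, and Hnrnpa2b1 (0.94), Cfp (0.91) and Rps27l (0.90) for Gria2. For Gria3 they were Spp2 (0.80), Pikfyve (0.79) and Chrna5 (0.79), and for Gria4 Add1 (0.96), Loxl3 (0.92) and Tex13b (0.91). For Cnih2 they were Pnkd (0.80), Ndfip1 (0.78) and Pigf (0.77), for Grip1 Acan (0.82), Colec10 (0.75) and Slfn8 (0.75), and for Pick1 LTO1 (0.87), Dag1 (0.86) and Stox2 (0.84). These were picked as the highest among 18193 genes over 19 arrays, and such a pick gives high values also among unrelated genes. Their size was not tested, and no shared regulation is read from them.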

How the data were processed

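The authors deposited log2 values per probe set of an Affymetrix mouse array. They used RMA, of version 2.0 according to the submitters' processing notes, and took the upper decile of a set's probes. The log base was read from their range, 2.12 to 16.0. A genome build and the meaning of the number format are not given in the sources used here. From 45101 probe sets 64 controls were left out, 34945 had 1 gene symbol in the platform annotation, 932 several and 9160 none. Gene values are medians of probe sets with 1 symbol. Strain differences were tested with limma 3.58.1 in R 4.3.3 (lmFit and eBayes, strain as the only term, all 19 arrays) and adjusted over all genes or all probe sets. Precision is limited by the number of arrays. Dim genes were kept. The scripts were tested on simulated data. The text names all 7 genes, each probe set, the 3 genes of each partner list with the smallest p and the 3 genes most like each; other genes (Kif5a, marker genes) were named after their values were seen. The 7 genes and the lists were chosen with earlier results of these data known. Alternatives were other scalings, blocks, variances, gene values, filters and array sets.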

Additional observations from a re-analysis of the deposited data

Results flagged for a closer look

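Dixon's criterion was applied to C57BL/6 groups of one pool size (4 or 5 arrays) and to the 5 Balb/c arrays across pool sizes. By it, 7 of 84 sets of values held an array that stood far from the others, where chance gives about 1 in 20 for a single set. The sets are linked, since gene values were tested beside their own probe sets and all share the same arrays. No excess over chance is therefore read from the count. All 7 are C57BL/6. No Balb/c group of one pool size holds more than 2 arrays, so the Balb/c sets mixed pool sizes. In pools of 100, C57BL/6 100-2 was lowest for the Gria2 gene value (8.90, next 9.75) and C57BL/6 100-1 highest for the Grip1 gene value (8.67, next 7.37). That Gria2 median fell on 1421970_a_at in C57BL/6 100-2 and on 1453098_at in the other C57BL/6 pools of 100. At 1453098_at itself C57BL/6 100-2 read 9.63, against 9.75 to 9.85 in those pools. In pools of 200, C57BL/6 200-1, which correlated more with Balb/c, was lowest at Gria2 1434146_at (5.53, next 8.91). C57BL/6 200-2 was highest at Grip1 1435951_at (10.2, next 7.40). In pools of 400, C57BL/6 400-1, named as lying between the strains, was lowest at Grip1 1421350_a_at (6.87, next 7.70) and highest at Pick1 1419384_at (8.54, next 7.81). C57BL/6 400-2 was highest at Gria4 1440891_at (5.88, next 4.59), where the other arrays of both strains lay below the olfactory receptor median. No cause was tested.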

How the results depend on the processing

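The count of AMPA receptor genes called between strains stayed at 4 under quantile normalization, range scaling, pool size as a covariate, a variance per strain, the methods' t-test, without probe sets ending in _s_at or _x_at and without the 3 arrays between the strains, whose removal widens differences by construction. It was 0 with number format as a block, 0 in the long format only, 1 in pools of 100 only and in pools of 400 only (Gria2 in both), 2 (Gria1 and Cnih2) with the highest probe set per gene, and 3 to 4 without single arrays. Called probe sets, 6 in all, numbered 1 with number format as a block, 0 in the long format only, 3 with a variance per strain, 2 in pools of 100 only, 4 in pools of 400 only (2 lower and 2 higher, the higher being Grip1 1421350_a_at and Gria2 1453098_at at 1.402, adjusted p = 0.0287), 0 with the filter on dim probe sets (which let in only Gria2 1453098_at and Gria4 1435722_at, neither called without it) and 3 to 7 without single arrays (3 without Balb/c 100-2 and without Balb/c 400-1). Genes with unequal probe sets, 3 in all, numbered 0 with the block and in the long format only, 1 in pools of 100 only and 1 to 3 without single arrays (1 without Balb/c 400-1). Partner genes, 24 in all, numbered 2, 0 and 8 under these settings, 6 with the filter on dim genes, and 14 to 29 without single arrays (14 without Balb/c 400-1). Over all genes, calls fell to 1343 with the replicate number as a block, against 5910 in the fit with no block. With this replicate block 0 AMPA receptor genes, 3 probe sets, 0 genes with unequal probe sets and 8 partner genes were called. Numbers above 2 exist only in C57BL/6, so the strain difference with this block rests on the arrays numbered 1 and 2. Deviations of arrays with the same number correlated at −0.07 to 0.02, and the numbers were not taken to pair the arrays. With at most 2 Balb/c arrays per pool size, this check could not exclude such a pairing. Pool size gave 0 calls among the 7 genes under every setting run.

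Values that changed sign were not called before or after, apart from Gria2, which with the highest probe set per gene was 0.59 (adjusted p = 0.195). With that setting Gria4 was 0.10, Grip1 0.32, Pick1 −0.14 and Cacng8 −0.27. In pools of 400 only, Grip1 was 0.60, Gria3 1420563_at 0.57 and Cacng8 −0.47, and in pools of 100 only Gria4 1435722_at was −0.18. Slopes on pool size changed sign for Cnih2 under the format block (−0.0011) and for Grip1 in C57BL/6 only (−0.11) and in 400 against 100 (−0.16), and the difference of slopes between strains for Gria3 under the same block (0.070). Without single arrays, the ranges that crossed 0 were −0.50 to 0.029 for Grip1, −0.11 to 0.13 for Gria4 1435722_at, −0.028 to 0.27 for Cnih2 (slope), −0.077 to 0.14 for Grip1 (slope), −0.045 to 0.20 for Gria2 (difference of slopes), −0.35 to 0.29 for Gria3 (difference of slopes), −0.69 to 0.48 for Cnih2 (difference of slopes) and −0.11 to 0.29 for Pick1 (difference of slopes). No AMPA receptor gene passed the filter on dim genes, which therefore gave no value for them. The causes were not tested.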
